A study of Drosophila melanogaster with 2 samples.

Results

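The 211 regions described here are ChIP-seq peaks of the Drosophila melanogaster zinc finger protein CG3065 that lie between genes but close to one. They were chosen by position alone from the 2451 peaks of the authors' list thresholded by the irreproducible discovery rate (IDR), called the IDR peaks. The summit, the highest point of a peak, had to lie more than 500 bp and at most 5000 bp from the nearest start site of a protein-coding gene. It also had to lie outside every protein-coding gene body and every annotated exon. The 211 gene-proximal intergenic peaks were 8.61% of the IDR peaks. The other 2240 comprised 1236 promoter peaks, with a summit within 500 bp of a start site, 506 gene-proximal and 233 distal intronic peaks, 145 distal intergenic peaks and 120 in exons outside promoters.

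The study had 1 group, whole embryos of mixed sex aged 0 to 16 h from a transgenic line that stably expresses CG3065 with GFP at its C-terminus. Chromatin sheared to between 200 and 800 bp was precipitated with an antibody against GFP in 2 biological replicates, numbered 1 and 3. Nothing was compared between groups of samples, and since whole embryos were used, a peak cannot be assigned to a tissue or an hour. The peak lists hold no read counts, so the depth is unknown, and embryos without the fusion were not analysed here.

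CG3065 belongs to the Sp/KLF family of transcription factors, whose zinc fingers recognise GC-rich sequences known as GC boxes and CACC boxes. DNA upstream of or between genes can hold enhancers, silencers and insulators, which act on a promoter from a distance, as well as start sites of genes that encode no protein. ChIP-seq finds DNA bound by a protein directly or through a partner. A nearest gene is therefore a landmark and not a known target.

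The sequences at the strongest peaks are shown first, because they show what the summits hold. Each window reaches 50 bases to either side of the summit, on the plus strand of dm6 as given by the RefSeq sequence of Release 6, and is named by the gene with the nearest start site. The first 8 are the peaks of highest signal among 170 windows open to printing. Windows on the arm that holds 35 of the peaks, and 6 that touch an exon, are left out here and in the sets below, so stronger peaks exist. In this set, capitals mark words of the Sp/KLF box, the CTCF core or Motif 1.
tara, chr3R:16222420-16222520: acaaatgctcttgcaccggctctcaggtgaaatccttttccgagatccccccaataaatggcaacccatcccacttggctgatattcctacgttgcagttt
sp3, chr3R:21520328-21520428: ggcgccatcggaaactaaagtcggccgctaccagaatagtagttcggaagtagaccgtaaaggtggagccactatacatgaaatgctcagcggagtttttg
slp2, chr2L:3832465-3832565: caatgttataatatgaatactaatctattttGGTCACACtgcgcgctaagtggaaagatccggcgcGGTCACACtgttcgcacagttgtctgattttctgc
CG43131, chr3R:5113245-5113345: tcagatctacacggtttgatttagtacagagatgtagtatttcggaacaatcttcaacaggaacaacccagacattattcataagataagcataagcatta
CG31668, chr2L:2202326-2202426: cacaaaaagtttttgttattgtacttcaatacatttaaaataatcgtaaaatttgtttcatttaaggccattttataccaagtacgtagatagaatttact
CG3149, chrX:5696481-5696581: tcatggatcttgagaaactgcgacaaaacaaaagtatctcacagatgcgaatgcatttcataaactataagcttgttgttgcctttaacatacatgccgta
jp, chr2L:9567463-9567563: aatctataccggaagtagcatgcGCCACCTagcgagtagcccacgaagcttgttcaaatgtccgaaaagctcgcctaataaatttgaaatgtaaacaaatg
Pdk1, chr3L:128745-128845: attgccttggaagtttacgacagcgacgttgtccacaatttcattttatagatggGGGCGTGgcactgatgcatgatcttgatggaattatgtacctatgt

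Of these 8 windows, the one near Pdk1 held a word of the Sp/KLF box, GGGCGTG, the reverse complement of CACGCCC. The window near slp2 held 2 copies of GGTCACAC, the Motif 1 sequence recognised by the protein M1BP at many fly promoters. The window near jp held GCCACCT, the reverse complement of the CTCF core AGGTGGC. The other 5 held none of the words searched for these 3 motifs. The windows ranged from 23.8% GC near CG31668 to 49.5% GC near sp3.

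The peaks of highest signal with an Sp/KLF box among those 170 come next, since this is the kind of site the family is known to bind. The box near Pdk1 is in the set above, and capitals mark the words of the box in the other 7.
bab2, chr3L:1178174-1178274: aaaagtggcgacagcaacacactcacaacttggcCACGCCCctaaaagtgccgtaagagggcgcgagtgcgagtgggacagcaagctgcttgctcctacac
croc, chr3L:21479807-21479907: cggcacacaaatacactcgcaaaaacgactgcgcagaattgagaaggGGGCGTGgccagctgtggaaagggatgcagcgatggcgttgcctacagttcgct
jhamt, chr2L:16361562-16361662: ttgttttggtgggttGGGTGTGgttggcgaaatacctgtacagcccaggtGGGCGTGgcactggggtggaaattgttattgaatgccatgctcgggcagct
mat, chr3L:900382-900482: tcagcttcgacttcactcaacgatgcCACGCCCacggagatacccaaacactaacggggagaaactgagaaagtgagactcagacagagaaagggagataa
ttk, chr3R:31712904-31713004: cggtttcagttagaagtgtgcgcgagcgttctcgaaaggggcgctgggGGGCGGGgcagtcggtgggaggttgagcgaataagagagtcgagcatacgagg
Cyp6v1, chrX:20655040-20655140: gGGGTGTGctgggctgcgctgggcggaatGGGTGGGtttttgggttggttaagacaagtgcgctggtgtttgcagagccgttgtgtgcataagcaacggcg
CG5194, chr3L:9011973-9012073: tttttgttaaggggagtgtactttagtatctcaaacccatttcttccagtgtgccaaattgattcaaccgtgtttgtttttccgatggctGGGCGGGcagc

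The words near jhamt and Cyp6v1 stood in pairs, and the other windows of this set held 1 word each. All 8 peaks of the set lay upstream of their nearest start site, as did 74.4% of all 211 peaks. Some weaker peaks with the box, such as those near Mpv17 and CG15036, lay on the downstream side. The 8 include peaks near bab2 and ttk, which encode BTB-domain transcription factors, and croc, which encodes a forkhead factor of the embryonic head. The 3 windows below add to that of jp the strongest peaks of the 170 whose CTCF core, in capitals, does not overlap a word of the Sp/KLF box. This set was chosen after its values were seen.
CG12643, chrX:10265863-10265963: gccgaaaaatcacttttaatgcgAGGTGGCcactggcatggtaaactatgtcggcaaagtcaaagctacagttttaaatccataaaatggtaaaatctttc
RabGGTa, chr3R:5127042-5127142: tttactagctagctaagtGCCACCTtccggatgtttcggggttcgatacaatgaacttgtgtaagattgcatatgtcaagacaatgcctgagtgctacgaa
Vha100-5, chr2L:11735808-11735908: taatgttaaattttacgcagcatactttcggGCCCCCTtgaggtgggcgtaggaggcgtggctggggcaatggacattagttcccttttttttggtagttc

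The signal of the gene-proximal intergenic peaks had a median of 109 (95% interval 101.4 to 117.8), with quartiles of 90.0 and 144 and a range of 81.3 to 467. Signal is the caller's value for each peak in the pooled reads of both replicates, in no stated unit, and ranks peaks within the list. The other IDR peaks had a median of 117 (114 to 119). The 2 intervals overlap. Gene-proximal intronic peaks had a median of 115, distal intergenic peaks 112, distal intronic peaks 107 and promoter peaks 120. Of the gene-proximal intergenic peaks, 91 (43.1%, 36.3 to 50.1) were among the 1225 IDR peaks of highest signal, against 50.6% (48.5 to 52.7) of the other IDR peaks. The share of the others is just above the first interval, though these 2 intervals overlap too. Among the 100 strongest IDR peaks 6 were gene-proximal intergenic. Signal exceeded 300 at 8 of the 211 peaks and 200 at 21, and was under 100 at 87. At 179 peaks (84.8%), the -log10 q was at the maximum of the list, against 88.4% of the other IDR peaks, so it does not rank them.

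**Figure D1:**
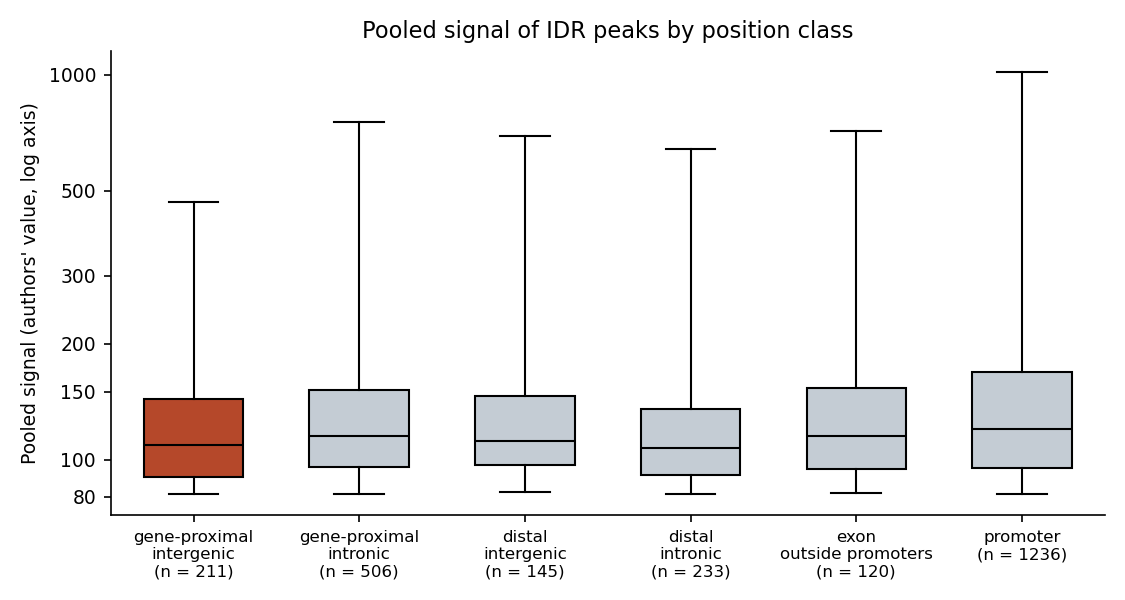
Pooled signal (authors' value, log axis) of the IDR peaks in each position class; the box spans the quartiles, the line is the median and the whiskers reach the lowest and highest peak. The gene-proximal intergenic box, with a median of 109, overlaps all the others, and its highest peak, at 467, is below the highest peak of every other class.

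The strongest peak lay on the downstream side of CycB, which encodes the mitotic cyclin B, at position 22802953 of 2R. Its signal was 467 in the pooled reads, 260 in replicate 1 and 207 in replicate 3. It stood 3350 bp from the start site, in a gap of 1340 bp between the ends of blw and CycB, 568 bp past the end of CycB. The peak near tara, which encodes a nuclear protein of the trithorax group, had a signal of 453 in the pooled reads, 210 in replicate 1 and 244 in replicate 3. It lay 3181 bp upstream of tara at position 16222470 of 3R, in a divergent gap of 20400 bp whose other side is mtSSB, the gene of the mitochondrial single-stranded DNA-binding protein. Both peaks ranked among the 61 strongest relaxed peaks of each replicate.

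The peak near Psc, a Polycomb group gene, had a signal of 416 in the pooled reads, 210 in replicate 1 and 193 in replicate 3. It lay 4221 bp upstream of Psc but 152 bp from the start of a non-coding RNA gene, lncRNA:CR44339. The peak near sp3 had a signal of 409 in the pooled reads, 245 in replicate 1 and 160 in replicate 3. It lay 550 bp upstream of sp3, between that gene and the homeobox gene C15, and so just inside the inner limit.

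The next peak, near slp2, had a signal of 339 in the pooled reads, 190 in replicate 1 and 149 in replicate 3. It lay 4325 bp upstream of slp2 in the gap of 9740 bp that separates it from slp1. Both encode forkhead factors needed for segmentation of the embryo. The same gap held a weaker peak of signal 108, 2209 bp downstream of the start of slp1, and another of signal 92.4 lay 4338 bp downstream of the start of slp2. The gap beyond slp2 also held a peak of signal 82.4, 1048 bp upstream of TTLL4B.

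Further signals over 300 were at CG43131 (327, upstream), CG31668 (315, downstream) and CG13321 (301, downstream). Below them came CG3149 (298), with the metalloprotease gene AdamTS-B on the other side, and CG14762 (276), 634 bp upstream of that gene in a gap shared with Optix, a homeobox gene of eye development. The peak near jp, which encodes a junctophilin that ties the endoplasmic reticulum to the plasma membrane, had 274. The peak near Pdk1, a kinase of insulin signalling, had 258. All of these 7 had a relaxed peak in both replicates, with signals of 126 to 200 in replicate 1 and 98.1 to 166 in replicate 3.

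The other peaks among the 25 strongest had pooled signals from 251 to 190. They were, from high to low, near Boot, CG17896, RasGAP1, CG34342, ph-d, DNAlig3, l(3)neo38, cpo, foxo, CG33453, bab2, Act5C and Hacd1. RasGAP1 encodes an inhibitor of Ras, cpo an RNA-binding protein, foxo the forkhead factor under insulin control, Act5C a cytoplasmic actin and Hacd1 an enzyme of fatty acid elongation. The peak near ph-d, a Polycomb group gene, had 215 in the pooled reads, 113 in replicate 1 and 104 in replicate 3. It lay between ph-d and its tandem copy ph-p, which are similar in sequence, and whether reads can be told apart there was not tested. DNAlig3 had the nearest start site to a peak of signal 214 without flanking it, since the peak lay in a gap of 437 bp between Sol1 and Cyp9f2. Of the 211 peaks, 210 had their nearest start site at a flanking gene. Among the genes facing these peaks across the gap were Lkr, which encodes the leucokinin receptor, Rim, which encodes a protein of the synaptic active zone, and Rh5, which encodes a rhodopsin.

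Distance from the summit to the nearest start site had a median of 1811 bp (95% interval 1557 to 2069) and a range of 502 to 4919 bp. The 12.52 Mb of sequence on 6 chromosome arms that meets the position rule held 16.9 peaks per Mb (14.7 to 19.3). Density was 25 per Mb (18.6 to 32.9) from 500 to 1000 bp, 18.3 (14 to 23.5) from 1000 to 2000 bp and 13.3 (9.33 to 18.3) from 2000 to 3000 bp. It was 11.9 per Mb (7.88 to 17.1) from 3000 to 4000 bp and 17.0 (11.8 to 23.7) from 4000 to 5000 bp. The nearest bin was thus denser than those from 2000 to 4000 bp, with intervals that do not overlap, and the last bin overlapped all the others. Median signal did not follow this order, at 105, 118, 104, 111 and 105 from the nearest bin to the farthest.

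Of the 211 peaks, 157 (74.4%, 68.0 to 80.2) lay upstream of their nearest start site and 54 (25.6%) on its downstream side, past the end of the gene. The sequence that meets the rule is itself 69.2% upstream, which is within that interval. Density was 18.1 per Mb upstream and 14 per Mb downstream, and median signal 110 upstream and 105 downstream. The 5 strongest on the downstream side were those near CycB, CG31668 and CG13321 named above, one of signal 166 near CG43131, 1010 bp from its start, and a second near CG13321 of signal 150. The last stood 203 bp from the stronger CG13321 summit, with overlapping intervals. Its matched signals were 63.8 in replicate 1 and 18.8 in replicate 3.

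Orientation of the flanking genes differed more from the sequence available. In gaps between divergently transcribed genes, where both start sites face the gap, lay 88 peaks (41.7%, 35.0 to 48.7), against 31.4% of the eligible sequence, which is below the interval. Gaps between tandem genes held 92 peaks (43.6%, 36.8 to 50.6), against 52.0% of the sequence, which is above it. Convergent gaps held 31 (14.7%, 10.2 to 20.2), against 16.4%. Densities were 22.4 per Mb in divergent, 14.1 in tandem and 15.1 in convergent gaps, and median signals 115, 105 and 105. These intervals cover counting error only and treat neighbouring peaks as independent.

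**Figure D2:**
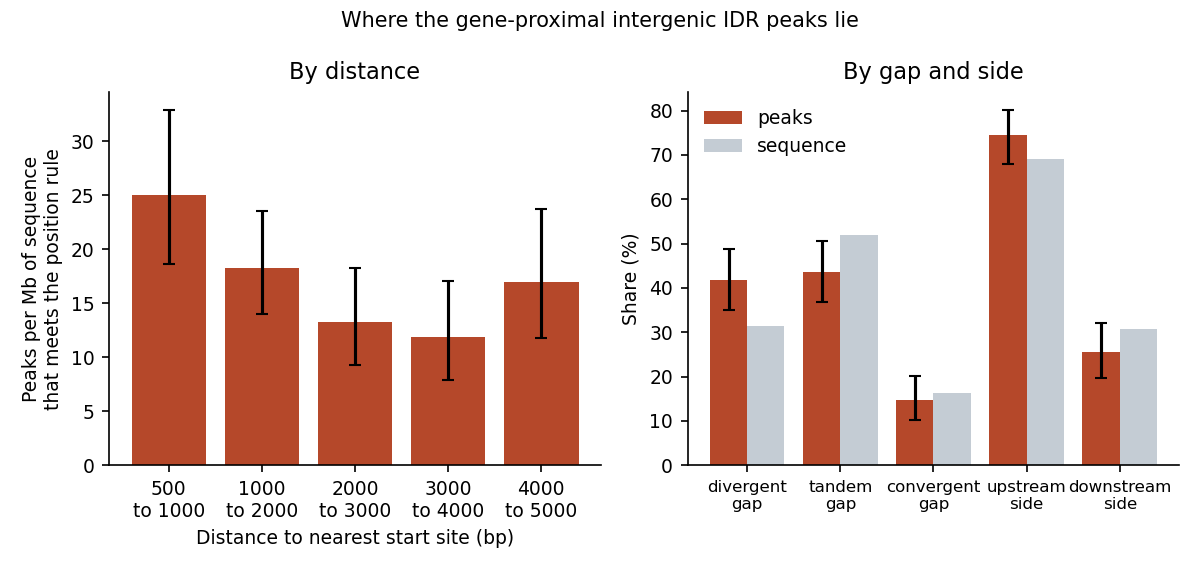
Left, gene-proximal intergenic peaks per Mb of eligible sequence by distance (bp), with exact 95% Poisson intervals; right, share of peaks (with exact 95% binomial intervals) and share of eligible sequence in each kind of gap and on each side. Density is highest from 500 to 1000 bp, at 25 per Mb, and divergent gaps hold 41.7% of the peaks and 31.4% of the sequence.

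**Figure D3:**
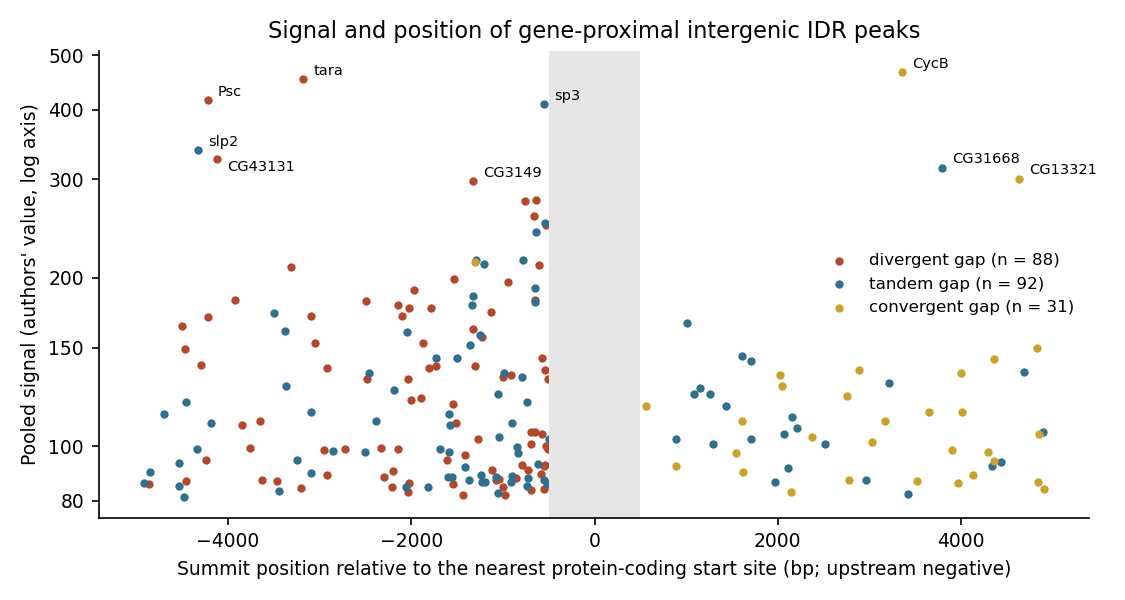
Pooled signal (log axis) against position relative to the nearest protein-coding start site (bp, upstream negative) for the 211 peaks, coloured by gap orientation, with the 9 strongest named by nearest gene; the grey band is the promoter window the rule leaves out. The 9 strongest lie from 550 bp (sp3) to 4627 bp (CG13321) from the start site, and 3 of them lie on the downstream side. No peak of signal over 200 lies between 1326 bp (CG3149) and 3181 bp (tara) from its nearest start site.

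By arm the density was 19.4 per Mb on 2L, 15.6 on 2R, 21.0 on 3L, 12.1 on 3R and 15.6 on X. Chromosome 4 had 58.7 per Mb, but from 4 peaks, with an interval of 16.0 to 150. The interval of 3L (15.8 to 27.4) overlapped that of 3R (8.58 to 16.6).

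The 211 peaks had 183 nearest genes, of which 161 had 1 peak and 22 had several, 50 peaks in all. They fell into 181 gaps between protein-coding genes. The gaps had a median length of 6837 bp and ranged from 377 to 246739 bp. In 24 gaps there were several peaks, 54 in all. The gap between Hacd1 and Rh5 on 2L, 5886 bp long and divergent, held 4, with signals of 190, 162, 157 and 106. Past the end of Rh5 lay peaks of signal 137 and 86.0.

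The gap between mtSSB and tara held 3 peaks, with signals of 453, 174 and 99.4 within a stretch upstream of tara. The gap of 2097 bp between RasGAP1 and CG10809 held 3, with signals of 242, 152 and 99.7. The gap between aop, which encodes an ETS-domain repressor that receptor tyrosine kinase signalling inactivates, and CG10874 held 3, with signals of 144, 130 and 97.1. The gap between NimC3, a gene of the Nimrod family of immune receptors, and hll held 3, with signals of 121, 98.9 and 90.2. Some of these are close neighbours: 13 of the 211 summits had another IDR summit within 250 bp and the closest was 200 bp away. Joining member summits within 400 bp leaves 206 regions.

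The nearest gene of 31 peaks (14.7%, 10.2 to 20.2) also had a promoter IDR peak, against a background of 12.0% of all protein-coding genes, which is within the interval. Among them were foxo, ph-d, l(3)neo38, Act5C and edl. The median signal was 98.9 for these 31 and 109 for the other 180. Within 5000 bp of 90 peaks (42.7%, 35.9 to 49.6) lay the next IDR summit of any class, against 37.4% of the other IDR peaks, 49.2% of gene-proximal intronic and 33.1% of distal intergenic peaks.

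The rule leaves out protein-coding promoters but not those of other genes. Within 500 bp of the start of an annotated gene that is not protein-coding lay 27 peaks (12.8%, 8.60 to 18.1), of which 22 were near non-coding RNA genes and 5 near transposable elements. Of the eligible sequence 6.90% lay so close to such a start, which is below the interval. The share was 6.74% of the other IDR peaks, from 3.56% of gene-proximal intronic to 35.0% of exon peaks. For the 27 peaks the median signal was 120, against 106 for the others. The 5 strongest were near Psc (152 bp from lncRNA:CR44339), Boot (79 bp from Uhg4, a host gene of small nucleolar RNAs) and l(3)neo38 (309 bp from lncRNA:CR45595), then near Act5C (220 bp from lncRNA:CR45668) and nej (473 bp from lncRNA:CR42657). The nej peak, at the gene of the CBP coactivator, had 183 in the pooled reads, 108 in replicate 1 and 71.8 in replicate 3. Inside the body of a non-coding gene lay 7 peaks, a count given without a background share.

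The replicates were compared through their own relaxed lists, which the authors name as peaks and background. Since the IDR list was chosen for reproducibility between these lists, presence in both is set by that choice and is a description. Both replicates had a relaxed peak no more than 200 bp away for 210 of the 211 (99.5%, 97.4 to 100), against 99.2% of the other IDR peaks. The exception, near Apoltp, had 87.7 in the pooled reads and 68.8 in replicate 1, with no relaxed peak in replicate 3. A stricter measure is a place among the strongest 2451 relaxed peaks of a replicate, as many as the IDR list holds. In replicate 1 this held for 169 (80.1%), in replicate 3 for 164 (77.7%) and in both for 130 (61.6%, 54.7 to 68.2). Of the other IDR peaks 69.6% (67.6 to 71.5) were so placed in both, an interval that overlaps the first.

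Median signal was 62.0 in replicate 1, with a range of 12.8 to 260, and 51.5 in replicate 3, with a range of 17.6 to 244. The log2 ratio of replicate 1 to replicate 3 had a median of 0.32 and an SD of 0.55 over 210 peaks, against a median of 0.26 and an SD of 0.54 over the other IDR peaks. The signals were within 2-fold at 189 peaks. Spearman's rho between replicates was 0.55 over the 210 peaks and 0.57 over the other IDR peaks, a description over peaks that share the 2 libraries. The pooled signal was close to the sum of the replicates, with a median ratio of the sum to the pooled value of 99.6%, and 168 peaks were within 5%. The pooled value is therefore not independent of the 2 replicates.

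The peaks least alike in the replicates were near CG14662, with 12.8 in replicate 1 and 54 in replicate 3, and near Aldh-III, with 102 in replicate 1 and 24.7 in replicate 3. These were named for their extreme ratio. Neither is among the 25 strongest peaks, of which the weakest values were 89.5 in replicate 1 and 69.7 in replicate 3.

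**Figure D4:**
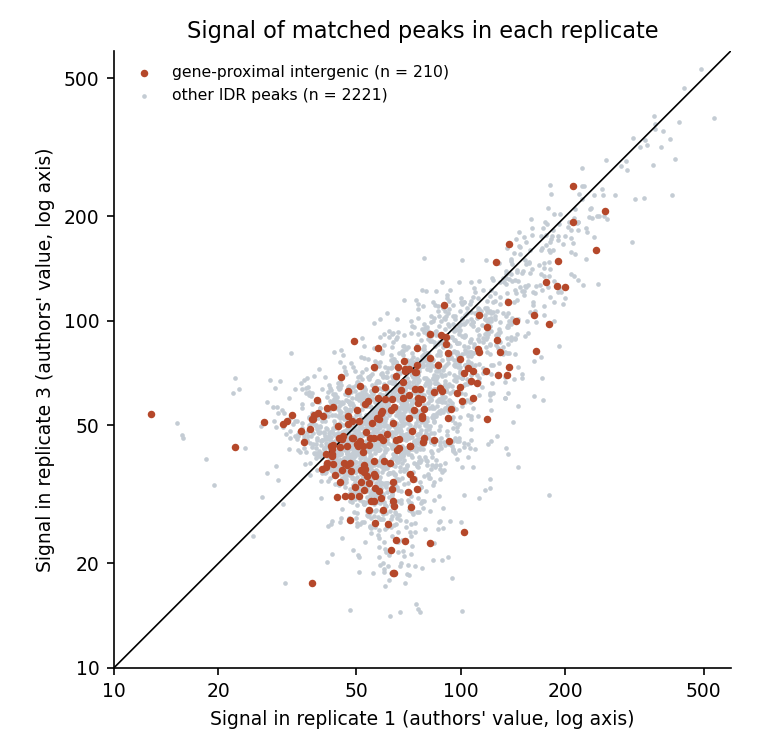
Signal of the nearest relaxed peak in replicate 1 (x) and replicate 3 (y), both the authors' values on log axes, for 210 gene-proximal intergenic peaks over 2221 other IDR peaks; the line marks equal values. The gene-proximal intergenic points lie within the cloud of the other peaks, mostly below the line.

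The pooled relaxed list held 3224 peaks that meet the position rule, with a median signal of 29.8. Of these 211 are IDR peaks, 6.54% (5.72 to 7.45), against a background of 8.17% over all 30000 pooled relaxed peaks. The share was 16.3% for promoter positions, 7.63% for gene-proximal intronic, 4.49% for distal intronic, 4.40% for distal intergenic and 2.94% for exon positions outside promoters. A place near a gene but between genes was thus below the overall share, as was every class but promoters. It was above distal intergenic (3.72 to 5.15), distal intronic (3.94 to 5.09) and exon positions (2.44 to 3.51).

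At the edges of the rule, peaks near the tensin gene by (479 bp from the start site, signal 93.0) and the cell death gene hid (485 bp, 81.4) were just outside the inner limit. Those near CG6602 (502 bp, 103) and stv (510 bp, 132) were just inside. At the outer limit, peaks near yip3 (4905 bp, 83.9) and the cell death gene rpr (4919 bp, 86.0) were just inside, and those near CG3473 (5183 bp, 116) and CG14762 (5225 bp, 266) just outside. The weakest was 4476 bp upstream of the growth regulator Myc, with 81.3, and next was CG4733, with 81.7. The strongest relaxed peaks that meet the position rule but are not in the IDR list were near CG43332 (81.3) and foxo (80.9).

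Of the 12 motifs searched within 50 bp of the summit, on both strands, the Sp/KLF box was searched as CACACCC or CACGCCC and as CCCACCC or CCCGCCC. It was present in 28 of the 211 windows (13.3%, 9.00 to 18.6), against 14 windows centred 500 bp to the right (6.64%, 3.67 to 10.9) and 4 centred 500 bp to the left (1.90%). In bins of 50 bp, the box was in 5.69% of peaks just left of the summit and 9.00% just right of it. Other bins out to 500 bp had 1.90% to 6.16%, the highest 350 to 400 bp to the left. The lowest were 400 to 500 bp to the left, where part of the left window lies, and 50 to 100 bp to the right. It was present in 4.78% of 123970 windows that tile the eligible sequence, a share below the interval at the summits. Among the other IDR peaks the share was 11.1%, with 10.1% at gene-proximal intronic, 18.8% at distal and 6.47% at promoter summits. CACGCCC alone was in 21 windows (9.95%, 6.27 to 14.8), against 4 windows to the right (1.90%), 1.54% of the eligible windows and 9.42% of the other IDR peaks. CCCGCCC was in 6 windows, CACACCC in 4 and CCCACCC in 2, and 5 windows held more than 1 word of the box.

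The Sp/KLF box was present in 5 of the 50 strongest peaks and in 23 of the other 161. Median signal was 111 with the box and 108 without it. By distance it was present in 8 of 34 peaks from 4000 to 5000 bp (23.5%) and in 9.80% to 13.1% in the nearer bins. These shares have no interval and rest on 3 to 8 peaks with the box per bin. A trend with distance was not tested. Besides those shown above, peaks with the box lay near edl, an inhibitor of the ETS repressor encoded by aop, near bab1, B-H2, unc-4 and Eip63E, and upstream of Myc.

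The CTCF core, searched as AGGGGGC and AGGTGGC after the insulator protein CTCF, was present in 18 windows (8.53%, 5.13 to 13.1). It was present in 3 windows to the right and 3 to the left (1.42% each), in 1.78% of the eligible windows and in 3.97% of the other IDR peaks, both below the interval. Among the other IDR peaks, it was in 6.35% of distal peaks, which is within the interval, 3.16% of gene-proximal intronic and 3.07% of promoter peaks. In 4 of the 18 windows the word overlapped a word of the Sp/KLF box. Without those, 14 windows (6.64%, 3.67 to 10.9) held the core, against 2.59% of the other IDR peaks, 3.70% of distal peaks, which is within the interval, and 1.59% of the eligible windows. They include 3 of the 25 strongest peaks, near CG14762, jp and Boot. Any of Sp/KLF box, CTCF core or Motif 1 was present in 43 windows (20.4%). No such combined share is given for other windows, so this one cannot be read as high or low.

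The DRE, TATCGATA, bound by the protein DREF at many promoters, was in 0 of 211 windows (up to 1.73%). It was in 0.176% of the eligible windows, 0.198% of gene-proximal intronic and 0.265% of distal peaks, all within that interval. Shares of 1.96% of the other IDR peaks and 3.32% of promoter peaks lay above it. Motif 1, also known from promoters, was in 1 window, that of slp2 (0.474%, 0.0120 to 2.61), against 0.125% of the eligible windows, 0.938% of the other IDR peaks and 1.70% of promoter peaks, all within the interval. It was in 0% of gene-proximal intronic and distal peaks. The TATA box, TATAAA, was in 38 windows (18%, 13.1 to 23.9), against 10.9% to the right, 14.7% to the left, 13.4% of the eligible windows and 19.2% of the other IDR peaks.

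Motifs of factors that act at enhancers, Polycomb sites and domain boundaries had shares beside the summits and in the eligible sequence that lay within the intervals at the summits. GAGA, searched as GAGAG, was in 13.3% (9.00 to 18.6), against 15.6% to the right and 10.1% of the eligible windows. The Pho site, GCCAT, was in 17.1% (12.2 to 22.8), against 18% and 20.9%. The core of the boundary factor BEAF-32, CGATA, was in 13.7% (9.40 to 19.1), against 11.4% and 9.92%, and the DRE contains it. The Zelda site, CAGGTAG, was in 1 window, against 0.439% of the eligible windows and 0.402% of the other IDR peaks. The E-box CAGCTG was in 4 (1.90%), against 3.76% and 4.51%. The E-box CACGTG was in 0 (up to 1.73%), against 1.21% and 0.982%. The CA repeat CACACACA was in 3 (1.42%), against 2.40% and 1.92%. All these shares lay within the intervals at the summits. A match is a word in the window and does not show that the factor binds there.

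**Figure D5:**
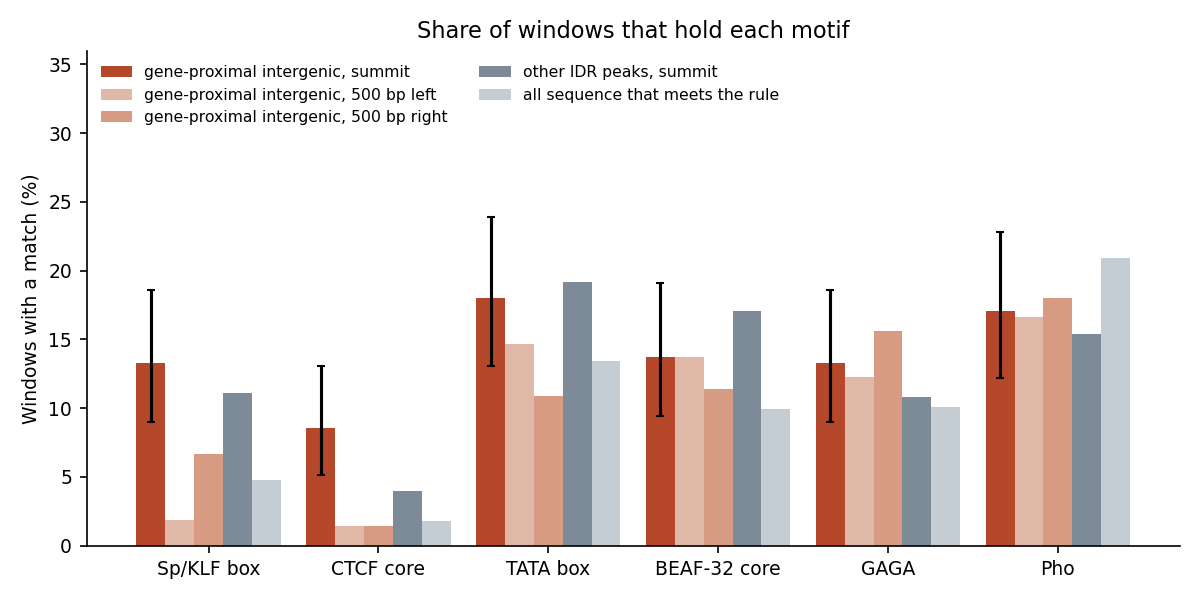
Share of windows reaching 50 bp either side of their centre (%) with a match to each of 6 motifs, at the summits of gene-proximal intergenic peaks (with exact 95% binomial intervals), 500 bp to their left and right, at the summits of the other IDR peaks and over all eligible sequence. The Sp/KLF box (13.3%) and the CTCF core (8.53%) are more frequent at the summits than in the eligible sequence (4.78% and 1.78%), while the intervals of the other 4 motifs contain the share of the eligible sequence.

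Median GC content was 35.6% at the summits, against 43.6% in the windows 500 bp to the left and 42.6% in those to the right. The other IDR peaks had 34.7% at the summit and 43.6% on either side. Median GC content was thus lower at the summits, but most summit windows with the GC-rich Sp/KLF or CTCF words were above 35.6%. With the Sp/KLF box, the window near Mpv17 had 31.7%. The others with the box ranged from 40.6% near Slmap to 66.3% near B-H2. With the CTCF core, the window near Fili had 34.7%. The others with the core ranged from 36.6% near CG14762 to 66.3% near B-H2. The part of GC content in the higher shares of these words at the summits was not tested.

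Nearest genes were then read against 16 gene lists. Over all 13945 protein-coding genes, 183, or 1.31%, were nearest to a gene-proximal intergenic peak. The lists were chosen with results of these data known, so their counts are a description. Of the EGFR, FGF and Ras pathway genes 3 of 32 (9.38%, 1.98 to 25) were nearest to 7 peaks. These were RasGAP1 with 3 peaks of up to 242, edl with 2 of up to 186, and aop with 2 of up to 144. In replicate 1 the strongest peak of each had 144, 118 and 74.9 in that order of genes, and in replicate 3 it had 99.6, 71.7 and 74.5.

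Of the zinc finger and nuclear receptor patterning factors 4 of 53 (7.55%, 2.09 to 18.2) were nearest to a peak: slp2, ttk, slp1 and esg. The list was drawn too wide, since slp1 and slp2 encode forkhead factors, while ttk and esg encode zinc finger repressors. Wnt and Hedgehog pathway genes had 2 of 32, the Wnt receptor gene fz (144) and the ligand gene Wnt4 (86.7). Notch pathway genes had 1 of 17 (E(spl)malpha-BFM, 138), bHLH and neural fate genes 1 of 39 (E(spl)m3-HLH, 96.6) and homeodomain factors 1 of 67 (B-H2, 104).

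Guidance and adhesion genes had 2 of 40, the Slit receptor gene robo2 (182) and the Netrin receptor gene unc-5 (133). Muscle and mesoderm genes had 1 of 32, the forkhead gene bin (139). Ecdysone response genes had 2 of 20, Eip63E (87.3) and shd (81.9), which encodes the enzyme that makes active ecdysone.

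Only the EGFR, FGF and Ras list and the zinc finger and nuclear receptor list had intervals that lay above the background of 1.31%. The intervals of all the other lists contained it, those of developmental genes included. Genes of terminal and housekeeping function were among these other lists. Chemoreceptor and odorant-binding protein genes had 3 of 231 (1.30%; Gr89a, Gr93d and Gr93a), cytochrome P450 and detoxification genes 2 of 145 (Cyp6v1 and Ugt37C1), cuticle protein genes 1 of 122 (Cpr76Ba) and cytosolic ribosomal protein genes 1 of 93 (RpLP0). BMP and activin pathway genes and JAK/STAT and Toll pathway genes had 0 of 22 each, with intervals of up to 15.4%. Heat shock and chaperone genes had 0 of 36, with an interval of up to 9.74%. These lists are not complete. Outside them, and named after the values were seen, peaks lay near PGRP-SA, a recognition protein of the Toll pathway (103), the small heat shock protein gene CG14207 (90.7) and the co-chaperone gene stv (132).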

How the data were processed

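CG3065-GFP was profiled by ChIP-seq with an antibody against GFP in 2 replicates, and the deposited files are narrowPeak lists. Per the file headers and records, the authors made a relaxed list per replicate and 1 from pooled reads as input to IDR, and drew the IDR list from them. There were 30000 relaxed peaks in replicate 1, 26271 in replicate 3 and 30000 in the pooled list. The signal is the deposited value per peak as the authors' caller gave it, and the deposited -log10 q-value reaches a common maximum in most IDR peaks. No aligner, caller, version or IDR cutoff is given in the sources used here. The lists in build dm3 and the control were not used here. Depth is unknown.

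Summits were placed against the protein-coding start sites, gene bodies and exons of Ensembl release 115 (annotation version 54), and all IDR peaks ended within the lengths of the 6 arms. Coordinates are 1-based. A replicate's peak was matched within 200 bp of the summit. Motifs were searched within 50 bp of the summit. Shares have exact Clopper-Pearson, densities exact Poisson and medians order-statistic intervals at 95%, which cover counting error only. With 1 group no test was made and no p-value is given.

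Sequences of arm 2R and windows that touch an exon are not reported here. Named are the 25 strongest peaks, the 5 gaps with most peaks, up to 4 peaks per gene list, the 5 strongest near non-coding starts and on the downstream side, the peaks at each limit and the weakest. Other genes named from counts, the least alike replicate pairs and the CTCF sequences were chosen after their values were seen. The peaks, gene lists, motifs and rule for names were chosen with earlier results of these data known. The position rule, matching and motif search were tested on simulated data. Computation used Python 3.11.15, numpy 2.4.6, pandas 2.3.3, scipy 1.17.1 and matplotlib 3.10.9. Alternatives changed the limits, the list, the annotation, the matching and the motif window, and left out each replicate.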

Additional observations from a re-analysis of the deposited data

How the results depend on the processing

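Over 13 results, 86 values were recomputed under other settings, and 67 stayed within the interval of the value given above or, for counts, within 1.5 times. Keeping the stronger part of the IDR list left 91 peaks, with a median signal of 157 and 2.82% of the relaxed peaks. Of these 91 peaks, 7.69% had a promoter peak at the nearest gene. The shorter list itself gives the first 3 values. The last counts only the promoter peaks kept in that list, 672 of the 1236. Leaving out each replicate, with the strongest relaxed peaks of the other as the list, gave median signals of 52.6 to 63.6, on the scale of that replicate alone, and 192 to 197 peaks. Of the 211 peaks, 169 were found in the list without replicate 1 and 172 in the list without replicate 3. An inner limit of 1000 bp moved the median distance to 2254 bp, and an outer limit of 10000 bp moved it to 2376 bp, with 14 peaks per Mb and 5.69% of relaxed peaks in the IDR list. With start sites of all annotated genes there were 245 peaks, 184 of them shared with the 211, at 13.8 per Mb, 66.9% upstream and 0% near a non-coding start, the last by construction. The cause of the lower density and upstream share was not tested. The share with a relaxed peak in both replicates was 95.3% with a limit of 100 bp and 100% with one of 500 bp, with overlapping intervals, with the inner limit of 1000 bp or in the stronger part of the list. In windows of 100 bp either side 19% held an Sp/KLF box, as longer windows hold more words. The RefSeq annotation gave 217 peaks, all 211 included; the 6 more lie in exons of transposable elements of the Ensembl annotation. Keeping the strongest of member summits within 400 bp, an alternative added after seeing the data, left 206 peaks, with a median signal of 108 and 13.6% with the box. No paired analysis was possible because there was 1 group. Depth is unknown, so weaker sites may be missing from the list.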
